A study of Mus musculus with 6 samples.

Results

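The annotation of this mouse lung series holds a pair of B cell values, of which the smaller was taken here to be the type that the study's legend names pro-B cells. No annotation value carries that name itself. It comprised 99 of 61839 cells, beside 2356 B cells, and its members were taken by that annotation value alone. No gene level was used to choose a cell. The name was then set against Vpreb1, Igll1, Rag1 and Dntt, the usual pro-B markers, and 3 of the 4 were found in few cells. Rag1 was found in 66 of the 99 cells, but Vpreb1 in 14, Igll1 in 11 and Dntt in 5, whereas the conventional kappa light chain gene Igkc was found in 77. The cells are therefore called the minor B-lineage cells in what follows, and the name pro-B is kept only in the pictures.

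Lungs of 36 C57BL/6 mouse pups were profiled by single-cell RNA sequencing. Pups breathed room air (normoxia, 21% O2) or normobaric hyperoxia (85% O2) from the day of birth until harvest on postnatal day (P)3, P7 or P14, with 6 mice in each of the 6 groups. Normoxic pups were the controls, and the labels name no transgene or other agent. Blood was flushed from the lungs before they were digested with enzymes, and any blood cells that remained and cells resident in the tissue were not separated by any sort. Cells of each mouse were tagged with a lipid-anchored sample barcode (MULTI-seq) and pooled, in 5 pools and 6 libraries. Each mouse contributed 125 to 3036 cells and 1040712 to 19578324 unique molecular identifiers (UMIs, each a counted RNA molecule). A minor B-lineage cell held a median of 1996 UMIs (580 to 12684) over 1093 genes, against 2181 UMIs in B cells, and its median mitochondrial share was 6.36%. The most abundant sample barcode was that of the annotated mouse in 90 of the 99 cells. It took a median of 47.6% of the barcode UMIs in these cells, 48.7% in B cells and 73.9% in all cells, so the assignment of B-lineage cells to mice rested on a weaker signal. Of 394 cell barcodes found in more than 1 library, 1 belonged to a minor B-lineage cell, and 0 were shared between cells of this type.

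In B cell development the enzymes encoded by Rag1 and Rag2 first cut and join the heavy chain gene. At that pro-B stage terminal transferase (Dntt) adds bases at the joints. A finished mu heavy chain (Ighm) is then placed on the surface with a surrogate light chain, made of VpreB (Vpreb1, Vpreb2) and lambda5 (Igll1), as the pre-B receptor. After a burst of division the surrogate genes are switched off, Rag1 and Rag2 act again, and a kappa or lambda chain (Igkc, Iglc1 to Iglc3) is made, which yields an IgM-bearing immature B cell. Surface IgD, class II antigen presentation and CD20 (Ms4a1) are acquired with maturity. In the mouse these steps take place in fetal liver and bone marrow, and the lung is not a usual site of them.

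The stretches before the RefSeq starts of the surrogate light chain genes and of Rag1 are shown because these genes carried the check of the name and because Vpreb1 and Vpreb2 proved hard to tell apart by sequence. Each is the 250 bases before the annotated start in RefSeq promoter sequences of build GRCm38.p6, read 5′ to 3′ on the gene's strand. Capitals mark the E-box CAGGTG on either strand, the kind of element that E2A (Tcf3) binds, and CCCNNGGG, the core of the motif read by EBF1. Vpreb1 lies at chr16:16869256-16869505 on the minus strand, Vpreb2 at chr16:17980315-17980564 on the plus strand, Igll1 at chr16:16863986-16864235 on the minus strand and Rag1 at chr2:101649533-101649782 on the minus strand. The GENCODE gene models start earlier for the VpreB pair. The Vpreb1 stretch lies inside its model (chr16:16868403-16870843), and the Vpreb2 stretch runs into its model from position 17980428 on.

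Vpreb1: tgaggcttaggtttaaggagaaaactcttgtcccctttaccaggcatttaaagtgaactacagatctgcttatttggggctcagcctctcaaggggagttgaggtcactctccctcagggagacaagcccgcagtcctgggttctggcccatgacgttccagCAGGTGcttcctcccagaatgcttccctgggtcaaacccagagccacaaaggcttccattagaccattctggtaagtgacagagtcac
Vpreb2: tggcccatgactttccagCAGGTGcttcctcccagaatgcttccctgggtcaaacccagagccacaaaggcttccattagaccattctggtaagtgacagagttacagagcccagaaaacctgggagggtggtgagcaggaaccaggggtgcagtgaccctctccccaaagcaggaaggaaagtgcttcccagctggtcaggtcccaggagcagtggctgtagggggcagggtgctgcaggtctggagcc
Igll1: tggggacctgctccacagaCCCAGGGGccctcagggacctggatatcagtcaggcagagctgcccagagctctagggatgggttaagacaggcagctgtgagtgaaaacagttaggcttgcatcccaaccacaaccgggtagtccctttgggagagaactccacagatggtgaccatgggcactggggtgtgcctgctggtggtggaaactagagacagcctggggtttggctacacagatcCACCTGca
Rag1: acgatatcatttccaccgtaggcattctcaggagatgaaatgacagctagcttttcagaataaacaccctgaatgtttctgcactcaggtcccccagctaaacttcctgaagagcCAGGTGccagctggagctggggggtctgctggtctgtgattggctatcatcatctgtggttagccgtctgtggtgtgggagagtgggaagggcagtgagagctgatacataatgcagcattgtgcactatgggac

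The E-box stood 88 bases before the start in Vpreb1, 232 in Vpreb2, 8 in Igll1 and 135 in Rag1. Igll1 also held CCCNNGGG, 231 bases before its start. The pair of motifs did not overlap in Igll1. CAGGTG was present in 17.2% (5657 of 32851) of all promoter sequences of this length and CCCNNGGG in 11.8%, and 2.43% held both. Among genes of the pre-B receptor and its signalling, 7 of 9 promoter sequences (6 of 8 matched genes, of 12 listed) held CAGGTG. Vpreb1 and Vpreb2, whose stretches are nearly alike, were both among these genes. Of promoter sequences of V(D)J recombination genes, 1 of 15 held it (13 of 15 genes matched), of mature B cell genes 6 of 14 and of the listed transcription factors 3 of 26. These are matches of letters, not sites of binding. The Vpreb1 and Vpreb2 stretches were identical at 104 of the 106 bases over which they overlap (98.1%). Of all 30-base stretches of their transcripts, 376 were shared, which is 30.9% of those of Vpreb1 and 51.5% of those of Vpreb2. Counts of this pair are therefore uncertain, and both were read together with Igll1. Igll1 and Vpreb1 are neighbours, with 4417 bases between their GENCODE models. Vpreb1 overlaps Top3b on the opposite strand. The study used default settings of its counting program apart from the number of cells expected, and whether they used strand is not given in the sources used here. Rag1 overlaps B230118H07Rik on the same strand, where strand would not tell the genes apart.

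The minor B-lineage cells carried B-lineage transcripts in nearly every cell and recombination transcripts in most, but surrogate light chain in few. To compare types at equal depth, each cell was thinned at random to 1000 UMIs, which kept 93 of the 99 cells, 2270 B cells and 74 CD4+/CD8+ T cells and left out 6, 86 and 15 shallower ones. The CD4+/CD8+ T type was chosen for comparison because it is the other type of the annotation in which Rag1 was frequent. No annotation value carries that name either. The values CD8 T cell 2 and CD4 T cell 1 were taken here as the study's CD4+/CD8+ T and CD4+ T cells. Ranges in brackets are exact 95% binomial intervals and cover counting error only. Clusters had been formed from these same genes, so all differences between types are described with no test. Rag1 was found in 41.9% of thinned cells (31.8% to 52.6%), against 0.397% of B cells and 68.9% of CD4+/CD8+ T cells. Vpreb1 was found in 11.8% (6.05% to 20.2%) against 0.0441% of B cells and 0.170% of CD4+ T cells, which should lack it. Igll1 was found in 10.8% against 0.0441% of B cells, and Dntt in 3.23% against 39.2% of CD4+/CD8+ T cells. Rag1 and Dntt were thus more frequent in CD4+/CD8+ T cells, and Vpreb1 and Igll1 were rare in the minor B-lineage type but rarer elsewhere. Over all 34 types, unthinned, Vpreb1 ranked first in the minor B-lineage type (14.1%), followed by ciliated cells (4.36%), and 50.4% of all Igll1 UMIs of the series came from these 99 cells.

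**Figure D1:**
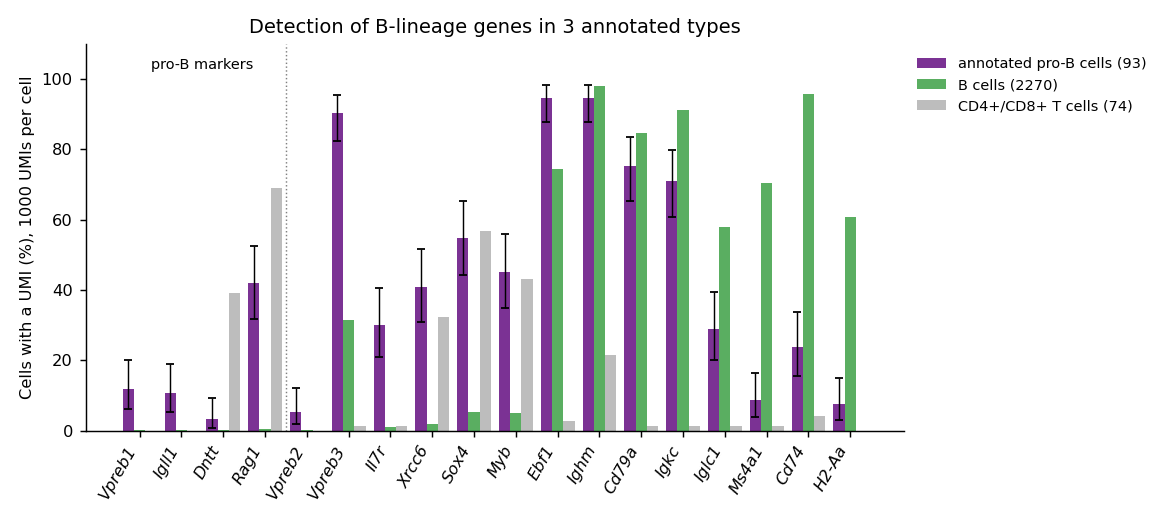
The bars give the percent of cells with at least 1 UMI of each gene after thinning to 1000 UMIs per cell, for the annotated pro-B cells (with exact 95% binomial intervals), B cells and CD4+/CD8+ T cells. Of the 4 pro-B markers at the left, Rag1 reached 41.9% of annotated pro-B cells and Vpreb1, Igll1 and Dntt stayed at 11.8% or less, while Ebf1 and Ighm were each found in 94.6%.

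Levels were compared as CPM, the UMIs of a gene per 1000000 UMIs of the summed cells of a type, as the difference of log2(CPM + 10), which understates the change of low genes. Of 2246 genes detected in 20% or more of either type, 219 (9.75%) were at least 1 log2 unit higher in minor B-lineage than in B cells and 153 (6.81%) at least 1 lower, with a median difference of 0.19. Over all 16365 genes with a UMI in either type, 687 (4.2%) were at least 1 higher and 545 (3.33%) at least 1 lower, with a median of -0.02. The gene lists are counted in full below, whatever the level of a member, and are read beside those shares. The genes that led the difference upwards were Rag1 (5.30), Il7r (4.27), Sox4 (4.06), Tifa (3.93), Xrcc6 (3.84), Atp1b1 (3.75), Gfra1 (3.53), Gm37065 (3.45), Uchl1 (3.16), Myl4 (3.14), Reln (3.02) and Vpreb3 (2.93). Il7r encodes the receptor for interleukin 7, which early B cells need, and Vpreb3 a VpreB-like chaperone of immature B cells. Sox4 is a transcription factor of early lymphoid cells. The genes that led downwards were H2-Eb1 (-4.41), Cd83 (-3.96), Ms4a1 (-3.87), H2-Aa (-3.81), Cd74 (-3.67), H2-DMa (-3.62), Fcmr (-3.52), Ahnak (-3.51), Ncf1 (-3.36), Pgap1 (-3.21), Gimap5 (-3.20) and Fgd2 (-3.14). H2-Eb1, H2-Aa, H2-DMa and Cd74 serve class II antigen presentation, which mature B cells acquire. Of all types, the profile over the 2246 genes was most like that of B cells (Pearson r over genes 0.79) and next that of CD4+/CD8+ T cells (0.74), a description in which the points are genes and share the same libraries.

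Of the 12 listed genes of the pre-B receptor and its signalling, 5 were at least 1 log2 unit higher than in B cells and 0 at least 1 lower, with a median of 0.29. The 5 were Vpreb1 (5.26), Igll1 (4.44), Vpreb2 (3.55), Vpreb3 (2.93) and Blnk (1.34). Vpreb3 was found in 90.3% of thinned cells against 31.5% of B cells and 0.227% of CD4+ T cells. Vpreb2 was found in 5.38% against 0.0441% of B cells. The adaptor gene Blnk, which passes the receptor's signal on, was found in 41.9% against 17.6% and the kinase gene Syk in 41.9% against 31.5%. The heavy chain gene Ighm was found in 94.6% against 98.1%, and its signalling partners Cd79a in 75.3% against 84.8% and Cd79b in 88.2% against 84.8%. Lyn was found in 17.2% against 21.6% and Btk in 4.30% against 7.58%. The levels of Ighm, Cd79a and Cd79b differed from those of B cells by -0.11, -0.33 and 0.12 log2 units. Ighm was also found in 17.1% of CD4+ T cells, which should lack it, whereas Cd79a was found in 1.35% of CD4+/CD8+ T cells.

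Of the 15 listed recombination genes, 8 were at least 1 log2 unit higher in the minor B-lineage cells, 1 was at least 1 lower and 6 lay between, with a median of 1.81. The 8 were Rag1, Xrcc6, Dntt (2.47), Lig4 (2.31), Rag2 (2.24), Hmgb2 (2.21), Polm (2.10) and Hmgb1 (1.81). The 6 were the joining factors Xrcc4 (0.17), Nhej1 (-0.17) and Dclre1c (-0.17), the polymerase gene Poll (0.24) and the kinase genes Prkdc (-0.30) and Atm (-0.64). Xrcc6, a subunit of the Ku end-joining complex, was found in 40.9% of thinned cells against 1.85% of B cells and 32.4% of CD4+/CD8+ T cells. Its partner Xrcc5 was the lower one (-1.44), found in 0 of 99 cells and in 4.84% of B cells unthinned. By the limit of 3 counts, 0 cells allows a share of cells with a UMI of up to 3.03%, which is not a limit on cells that express the gene. Polm, a polymerase that fills in light chain joints, was found in 18.3% against 4.41%. Hmgb1 and Hmgb2, chromatin proteins that assist RAG cutting and also rise in dividing cells, were found in 44.1% against 19.1% and in 57.0% against 25.2%. Lig4, the ligase that seals the joints, was found in 7.53% against 0.749%. Rag2 was found in 8 of 99 cells and 0 of the 2356 B cells, and 3 cells held both Rag1 and Rag2.

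Of 19 listed transcription factors, 8 were at least 1 log2 unit higher in the minor B-lineage cells, 1 was at least 1 lower and 10 lay between, with a median of 0.70. Besides Lef1 and Erg, which were found in under 20% of either type, the 8 were Sox4 (54.8% of thinned cells against 5.29% of B cells), Myb (45.2% against 4.89%), Bach2 (45.2% against 18.8%), Ebf1 (94.6% against 74.4%), Tcf3 (45.2% against 20.8%) and Irf4 (32.3% against 12.1%). Ebf1 and Tcf3 start the B cell programme, and Irf4 promotes light chain rearrangement. Pou2f2, which encodes Oct2, a factor of mature B cells, was the lower one, found in 23.2% of all 99 cells against 62.7% of all B cells. Lef1 (7.53% against 3.04%) and Erg were 1.58 and 1.24 log2 units higher. Pax5, which holds cells in the B lineage, was found in 32.3% against 35.7%, a difference in level of 0.04. Foxo1 was found in 26.9% against 17.9%, Ikzf1 in 31.2% against 15.7%, Pou2af1 in 35.5% against 24.5%, Spib in 38.7% against 28.9% and Spi1 in 11.8% against 9.03%. Ikzf3, Irf8, Bcl11a and Runx1 lay at 8.60% to 16.1% of thinned cells, against 9.38% to 20.6% of B cells. Sox4 and Myb reached like shares of CD4+/CD8+ T cells, 56.8% and 43.2%, whereas Ebf1 was found in 2.70% of those.

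Of 12 listed receptors of progenitors, 4 were at least 1 log2 unit higher (Il7r, Bst1, Cd93 and Cd24a), 1 was at least 1 lower (Il2rg) and 7 lay between. Il7r was found in 30.1% of thinned cells against 0.969% of B cells, and in 36.2% of CD4+ T cells, which use the same receptor. Cd93, which marks immature B cells, was found in 27.3% of all 99 cells against 10.7% of all B cells, and in thinned cells Cd24a was found in 44.1% against 25.7% and Bst1, which early B cells carry, in 5.38% against 1.10%. Il2rg, the chain that works with Il7r, was found in 6.45% against 16.3%. Crlf2 (6.45% against 10.0%) and Cd9 (10.8% against 6.96%) differed less. Kit, Flt3, Cd34 and Mme, genes of earlier progenitors, were found in 1, 2, 1 and 0 of the 99 cells.

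Genes of mature B cells were lower nearly throughout. Of all 18 listed genes, 17 were at least 1 log2 unit lower and 0 at least 1 higher, with a median of -2.04; the exception was the tetraspanin gene Cd37 (-0.65), found in 39.8% of thinned cells against 57.7%. The class II genes H2-Eb1, H2-Aa and H2-Ab1 were found in 1.08%, 7.53% and 8.60% of cells, against 55.6%, 60.9% and 58.1% of B cells. Cd74, the class II invariant chain, was found in 23.7% against 95.9%, and Ms4a1 in 8.60% against 70.4%. Ighd was found in 7.53% against 33.5%, Fcmr, a receptor for IgM, in 1.08% against 33.0%, and the inhibitory co-receptor gene Cd22 in 5.05% against 31.5% without thinning. Ltb was found in 16.1% against 44.5%, Cd55 in 6.45% against 29.0%, Klf2 in 23.7% against 38.5%, Zfp318 in 1.08% against 10.3%, Cd40 in 1.08% against 6.17% and Tnfrsf13c in 16.1% against 22.6%. Fcer2a was found in 0 of 99 cells and in 6.61% of thinned B cells, and Ciita in 1.08% against 5.51%. Of 11 homing receptors, 1 was at least 1 higher, 5 at least 1 lower and 5 lay between. Cxcr4, which keeps early B cells near their niche, was found in 34.4% against 14.7%, while Ccr7 was found in 9.68% against 47.7% and Cxcr5 in 3 of 99 cells.

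Levels per mouse were set side by side for the leading genes and the markers, which were chosen from the pooled cells of these same mice. In the 20 mice with at least 2 minor B-lineage cells, summed per mouse, Vpreb3 ranged from 1279 to 5186 CPM (median 3367) in minor B-lineage cells and from 246 to 817 CPM (median 433) in B cells, so the ranges did not overlap. Sox4 ranged from 144 to 2383 CPM (median 805) against 0 to 95.9 CPM in B cells. Rag1 ranged from 0 to 1780 CPM (median 406) against 0 to 43.0 CPM. Rag1 was higher in 19 of the 20 mice, Il7r in 18, and Sox4, Tifa, Atp1b1, Ebf1 and Vpreb3 in 20. The other leading genes were higher in fewer mice, with Xrcc6 in 17, Gm37065 in 16, Reln in 15, and Gfra1, Uchl1 and Myl4 in 13. Ms4a1 was lower in the minor B-lineage cells of every one of the 20 mice, with 0 to 574 CPM (median 0) against 890 to 1824 CPM. Ighm overlapped widely, with 1878 to 10118 CPM against 3550 to 8427 CPM, and was higher in 10 of 20 mice. Vpreb1 was above B cells in 9 of 20 mice and Igll1 in 7, and their medians in minor B-lineage cells were 0. Vpreb2 was above B cells in 7 mice, Rag2 in 6 and Dntt in 4. At least 1 Rag1-bearing minor B-lineage cell was found in 27 of the 29 mice that had any cell of the type, but one with Vpreb1 or Igll1 in 10.

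**Figure D2:**
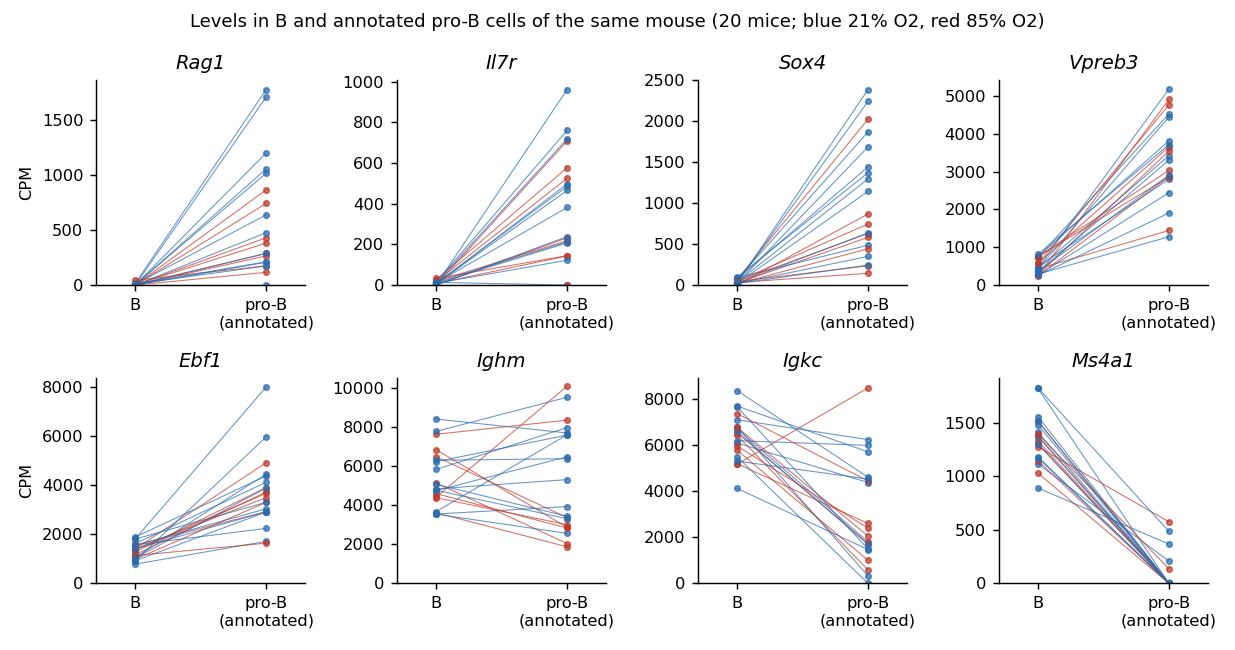
Each line joins the level of a gene, in CPM on a linear axis, in the summed B cells and the summed annotated pro-B cells of the same mouse, for the 20 mice with at least 2 annotated pro-B cells. Vpreb3 was higher and Ms4a1 lower in annotated pro-B cells of every mouse, whereas Ighm was higher in 10 of the 20.

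Markers of T and NK cells were at or near 0, and those of several other cell types were found at shares like those in B cells. Of 8 T cell markers Cd4, Cd8a, Cd8b1 and Ptcra were at 0, and 2 of 99 cells (2.02%) held a UMI of any of the 8, against 6.45% of B cells. The NK cell markers Nkg7, Gzma and Klrb1c were all at 0, as was the plasma cell gene Jchain, while Mzb1, a chaperone of IgM assembly, was found in 75 (75.8%, against 63.6% of B cells). Markers of plasmacytoid dendritic cells were found in 5.05% of cells against 13.5% of B cells. Of 5 myeloid markers Csf1r and Mpo were at 0, and a UMI of any of the 5 was found in 42.4% of cells against 39.1% of B cells. The lung epithelial transcripts Sftpc and Scgb1a1 were found in 88 and 86 of the 99 cells, and thinned in 66.7% each against 63.5% and 63.1% of B cells. Of the 4 red cell markers, all haemoglobin genes, Hbb-bs was the most frequent, found in 28 cells. A single cell of P7 hyperoxia 6 held 518 of the 579 haemoglobin UMIs of the type, and the next cell held 7. The summed level of markers of T, NK, myeloid, epithelial, endothelial and stromal cells lay between 1962 and 2989 CPM in the 6 groups of age and oxygen.

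Within the type, few cells held the surrogate light chain, and of the 17 that did, 8 lacked a conventional one. A UMI of Vpreb1, Vpreb2 or Igll1 was found in 17 cells of 12 mice, in 13 of them (9 mice) with at least 2 such UMIs, and 8 cells held all 3 genes. The cell with the most, of a P7 hyperoxic mouse, held 42 Vpreb1, 17 Igll1, 5 Vpreb2 and 3 Dntt UMIs with 0 of Igkc. All 5 cells with Dntt were among the 17. Of the 13 cells with at least 2 surrogate UMIs, 8 held no UMI of Igkc, Iglc1, Iglc2 or Iglc3. Of the 82 cells without a surrogate UMI, 14 lacked Igkc but only 2 lacked every light chain gene. The 13 cells were not the shallower ones, with a median of 3379 UMIs against 1906.5 in the 82. Rag1 was found in 56 of the 82 cells without and 10 of the 17 cells with surrogate light chain, and 50 of the 66 Rag1-bearing cells also held Igkc. Most Rag1-bearing cells therefore held a conventional light chain transcript and no surrogate one, with the limit that Igkc was also found in 1.87% of thinned CD4+ T cells and that 3′ reads of a constant region do not show whether the gene was rearranged.

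**Figure D3:**
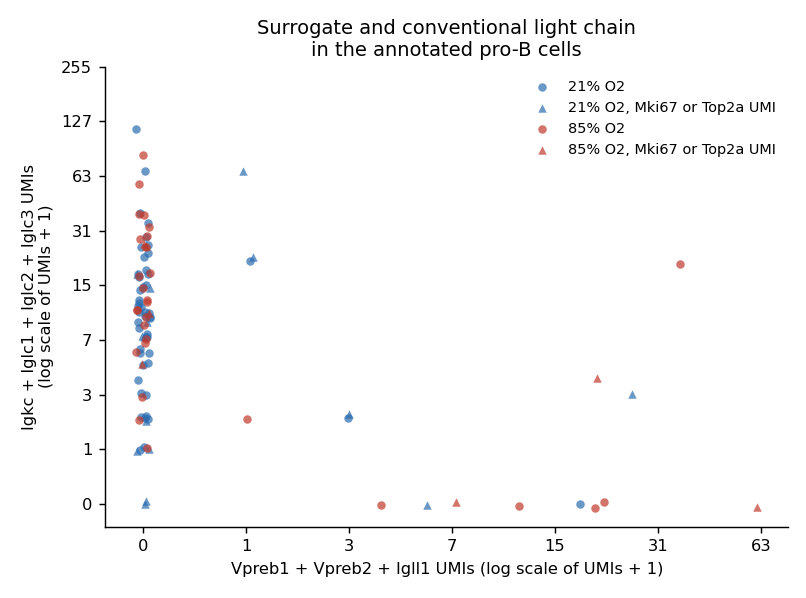
Each point is 1 of the 99 annotated pro-B cells, with its summed surrogate light chain UMIs on the x axis and its summed kappa and lambda UMIs on the y axis (both on a log scale of UMIs + 1, with slight jitter). The 8 cells on the bottom edge at the right hold at least 2 surrogate UMIs and no conventional light chain, and the 82 cells at the left edge hold no surrogate UMI.

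The kappa and lambda genes were less frequent than in B cells. Igkc was found in 71.0% of thinned cells against 91.2%, Iglc1 in 29.0% against 57.8%, Iglc2 in 20.4% against 51.3% and Iglc3 in 25.8% against 45.3%. Levels of Igkc and Iglc2 were 1.07 and 1.42 log2 units lower, and those of Iglc1 and Iglc3 0.48 and 0.93 lower. Counting a chain as held at 5 or more UMIs, 42 of the 99 cells held kappa alone, 12 lambda alone, 12 both and 33 neither. Among 2356 B cells, 729 held kappa alone, 234 lambda alone, 1265 both and 128 neither. Whether a cell with both made both chains was not tested.

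A subset carried transcripts of dividing cells. Mki67 or Top2a was found in 22 of the 99 cells, 8 of which also held surrogate light chain. These 22 cells held a median of 5280.5 UMIs against 1857 in the others, so depth moved with their detection and its part was not tested. After thinning, Top2a, the topoisomerase of dividing cells, was found in 9.68% of cells against 2.82% of B cells, and the mitotic gene Ccnb2 in 7.53% against 1.01%. Of the 21 listed cell cycle genes, 16 were at least 1 log2 unit higher than in B cells, among them Stmn1 (2.83) and Tubb5 (1.64), 4 lay between and Ccnd2 was lower (-2.45). By age, Mki67 or Top2a was found in 5 of 22 cells of P3 lungs, in 13 of 36 of P7 lungs and in 4 of 41 of P14 lungs, with unequal depth and no test.

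The share of lung cells that belonged to the type was small at every age, and no difference with oxygen or age passed the test. Shares are percents of all cells of a mouse, compared by two-sided exact permutation tests and adjusted over 34 types and 3 ages (Benjamini-Hochberg). Over all types and ages 13.7% of these tests were called. The type was found in 29 of 36 mice, 14 of 18 normoxic (63 cells) and 15 of 18 hyperoxic (36 cells), with 0 to 13 cells a mouse. At P14 the 6 normoxic mice had 0% to 0.631% (median 0.239%) and the 6 hyperoxic mice 0% to 0.134% (median 0.114%). The mean was 0.257% ± 0.213 (SD, n = 6) against 0.0910% ± 0.0549 (SD, n = 6), a difference of -0.166 percentage points (exact permutation p = 0.0584, adjusted p = 0.175). All 6 hyperoxic mice lay below 5 of the 6 normoxic mice, by a margin that came to 2 of 1493 cells (hyperoxia 1) against 2 of 1487 (normoxia 4). The groups overlapped through the normoxic mouse with no such cell. Within the pair of P14 pools the differences were -0.188 and -0.143. The call depended on 1 mouse: without P14 normoxia 1, which had 0 of 2997 cells (a share of up to 0.100%), the difference was -0.217 and the exact permutation test passed (adjusted p = 0.0315). Without P14 normoxia 2, which had the highest share, the difference was -0.0909.

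At P3 the means were 0.126% ± 0.121 in normoxia and 0.113% ± 0.0722 in hyperoxia (SD, n = 6 each, exact permutation adjusted p = 0.929). At P7 they were 0.205% ± 0.211 and 0.158% ± 0.236 (SD, n = 6 each, exact permutation adjusted p = 0.880). At both ages the groups overlapped almost wholly. Over all ages the difference was -0.0752 percentage points (permutation p = 0.186, adjusted over 34 types p = 0.316, where 32.4% of types were called). The difference at P14 was not shown to differ from that at P3 (-0.153, permutation adjusted p = 0.569 over 3 pairs of ages). Between ages in normoxia (means 0.126%, 0.205% and 0.257%, given above), none of the 3 pairs of ages passed the exact permutation test (adjusted p = 0.602, 0.779 and 0.393, where 19.6% of tests over all types were called). As percent of lymphoid cells the direction against P3 turned, with means of 2.56% at P3, 1.36% at P7 and 1.46% at P14.

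B cells of the same mice were lower in hyperoxia at P14, at 3.29% ± 0.809 of cells against 7.20% ± 1.93 (SD, n = 6, exact permutation adjusted p = 0.0245). With edgeR on the numbers of cells the call was lost (log2 fold change -1.13, adjusted p = 0.0688). Against that number the minor B-lineage cells did not shift measurably. Per 100 B-lineage cells there were 3.43 ± 2.99 in normoxia and 2.77 ± 1.89 in hyperoxia at P14 (SD, n = 6, exact permutation adjusted p = 0.965 over 3 ages). At P7 the values were 3.14 and 3.05, and at P3 7.14 and 7.55. Fewer than 20 B-lineage cells were held by 7 mice, all of them of P3 or P7. Over the 36 mice the share followed that of B cells (Pearson r = 0.58, permutation p = 0.00027, adjusted 0.00054; Spearman rho = 0.49, permutation p = 0.0028, adjusted 0.0056, over 2 relations). Without the 2 mice farthest from the median of the B cell share r was 0.47. Both shares have the same denominator. The permutations over the 36 mice kept to neither age nor pool. Their p therefore also take in differences between ages and between pools. Within the 12 mice of the pool of P3 and P7 lungs r was -0.0045, and within the 4 pools of 6 mice it was 0.38 to 0.75, with no permutation p of r under 0.05. Spearman's rho within these pools was 0.37 to 0.94, and its unadjusted permutation p was 0.0171 in 1 P14 pool and over 0.05 in the others. As percents of lymphoid cells r was 0.14. No relation to the share of CD4+/CD8+ T cells was found (r = 0.20, permutation p = 0.196; rho = 0.17, permutation p = 0.318).

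**Figure D4:**
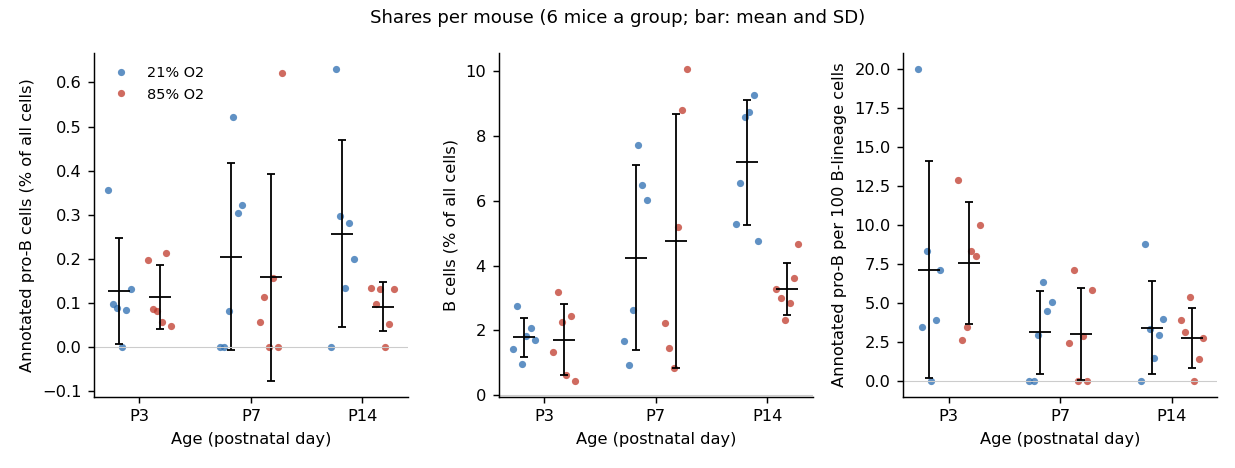
Points are mice, 6 in each group of age and oxygen, with the mean and SD as bars: annotated pro-B cells as percent of all cells, B cells as percent of all cells, and annotated pro-B cells per 100 B-lineage cells. The P14 hyperoxic mice lie at 0.134% or less in the left panel, where the normoxic mice reach 0.631%, and the right panel shows overlapping groups at each age.

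Expression within the type was compared between oxygen levels over the 20 mice with at least 2 cells of it (12 normoxic and 8 hyperoxic, 90 cells, 3127 to 47108 UMIs a mouse). Counts were summed per mouse, and edgeR's quasi-likelihood test was run on the sums with age as a covariate. Of 182 genes with enough counts, 0 were called (0% of genes tested) at adjusted p under 0.05, and 5 had an unadjusted p under 0.05. DESeq2 called 0. The 5 genes with the smallest p, none of which passed, were H2afx, Rpl13, Fth1, Vpreb1 and Calm2. H2afx, a histone variant gene, lay at 0 in 7 of 12 normoxic mice (highest 349 CPM). It lay at 0 in 4 of 8 hyperoxic mice (highest 1870 CPM), a log2 fold change of 2.69 ± 0.85 (SE, edgeR adjusted p = 0.702). The hyperoxic mice above 0 were the same mice that held a cell with Mki67 or Top2a, whereas in normoxia these sets of mice differed. Whether the level came from dividing cells was not tested. Vpreb1 was above 0 in 4 of 12 normoxic mice (median 0, highest 3319 CPM) and in 5 of 8 hyperoxic mice (median 1175, highest 3444 CPM). Its log2 fold change was 2.32 ± 1.0 (SE, edgeR adjusted p = 0.715). In 6 of these 9 mice the level came from 1 cell. Fth1, the heavy chain of ferritin, was 1942 to 6716 CPM (median 2450) in normoxia and 866 to 2153 CPM (median 1829) in hyperoxia, a log2 fold change of -0.66 ± 0.24 (SE, edgeR adjusted p = 0.715). Rpl13, a ribosomal protein gene, and Calm2, a calmodulin gene, had log2 fold changes of 0.35 and 0.68.

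With no filter on low counts, which tested 10502 genes, edgeR called 9, all higher in hyperoxia. They were Hbb-bs, Igll1, H2afx, Hba-a2, Dntt, Vpreb1, Hist1h2ab, Lpp and Itga6. Igll1 (log2 fold change 3.03, edgeR adjusted p = 0.00088) was found in 2 of 63 normoxic and 9 of 36 hyperoxic cells (2 and 6 mice), and Dntt (3.73, edgeR adjusted p = 0.0085) in 0 and 5, the latter in 4 mice. Both genes passed the required detection in 10% of cells only in hyperoxia, where they are high. So did Vpreb1 (9.52% of normoxic and 22.2% of hyperoxic cells), Hba-a2, Hist1h2ab, Lpp and Itga6, whereas Hbb-bs and H2afx passed it at both oxygen levels. The calls of the genes that passed it only in hyperoxia are therefore not read as a result about oxygen. Some rested on few UMIs over all the mice tested, with 13 of Dntt, 10 of Itga6 and 9 of Lpp. Among the 20 mice the level came from 1 cell in 5 of the 7 mice with Igll1 and in 3 of the 4 with Dntt. These counts cover the annotated type alone. Outside it, 3 cells of P14 normoxic mice held surrogate light chain with 10, 11 and 4 Dntt UMIs, and their part in the difference with oxygen was not tested. The haemoglobin genes Hbb-bs and Hba-a2 are markers of red cells, and the single P7 hyperoxia 6 cell with most haemoglobin held 342 of the 388 UMIs of Hbb-bs and 66 of the 73 of Hba-a2. Without that cell, a setting added after the data were seen, edgeR called the other 7 of the 9 genes (Igll1 2.96, adjusted p = 0.0040, and Dntt 3.74, adjusted p = 0.015). Of these only H2afx passed the required detection at both oxygen levels, so the setting is no separate check of the others.

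With the filter on low counts, no member of the gene lists was called with oxygen. Of the pre-B receptor list 5 of 12 genes could be tested, of the recombination list 4 of 15 and of the cell cycle list 3 of 21, and 0 of these were called in either direction, with median log2 fold changes of -0.03, -0.19 and 0.85 against 0.05 over all 182 genes. Rag1 lay at 731 ± 613 CPM in normoxia and 409 ± 267 CPM in hyperoxia (SD, n = 12 and 8, log2 fold change -0.55 ± 0.57 SE, edgeR adjusted p = 0.887). Igkc lay at 3183 ± 2278 and 2910 ± 2533 CPM, and Vpreb3 at 3315 ± 1128 and 3387 ± 1120 CPM. Of the p53 target, oxidative stress and interferon lists, no gene had enough counts to be tested in these cells. Surrogate light chain was found in 8 of 63 normoxic and 9 of 36 hyperoxic cells. By group these were 4 of 10 and 3 of 12 cells at P3, 3 of 20 and 4 of 16 at P7, and 1 of 33 and 2 of 8 at P14, and these counts were not tested.

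Between P14 and the earlier ages (P3 with P7), 0 of 182 genes were called by edgeR (0% of genes tested), 32 had an unadjusted p under 0.05, and DESeq2 called 5. All P14 mice were in pools of their own, so age and pool cannot be told apart. Depth moved with age, with a median of 1481 (normoxia) and 1765.5 (hyperoxia) UMIs per cell at P14 against 1897.5 to 3047 in the groups of P3 and P7. In normoxia the median mitochondrial share was higher at P14 (7.22%) than at P3 (5.04%) or P7 (5.72%), whereas in hyperoxia the P14 value (6.38%) lay between those of P7 (5.70%) and P3 (6.80%). Their part in the differences was not tested. The 5 genes with the smallest p did not pass. The mitochondrial gene mt-Co1 was 7364 to 14061 CPM (median 10562) at P3 and P7 and 10592 to 17310 CPM (median 15118) at P14 (log2 fold change 0.57 ± 0.14 SE, edgeR adjusted p = 0.0828). Serinc3, a membrane protein gene, had medians of 1001 and 1651 CPM (0.96 ± 0.25 SE, edgeR adjusted p = 0.0828). Dnajc7, a co-chaperone gene, had medians of 776 and 1345 CPM (1.54 ± 0.43 SE, edgeR adjusted p = 0.0943). The histone variant gene H3f3a had medians of 5351 and 2877 CPM (-0.65 ± 0.19 SE, edgeR adjusted p = 0.114). Foxp1, a transcription factor of early B cells, had medians of 973 and 1885 CPM (1.22 ± 0.38 SE, edgeR adjusted p = 0.134). For each of these genes the ranges of the groups overlapped. DESeq2 called these same 5 genes, with adjusted p of 0.0023 to 0.034.

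Among the lists, 0 genes were called with age. Rag1 was 368 ± 321 CPM at P3 and P7 and 953 ± 580 CPM at P14 (SD, n = 12 and 8, log2 fold change 1.42 ± 0.54 SE, edgeR adjusted p = 0.183). Ighm was 4384 ± 2527 and 6735 ± 2397 CPM (0.83 ± 0.28 SE, edgeR adjusted p = 0.152). Top2a was found in 19.0% of P3 and P7 cells and 4.88% of P14 cells (-2.56 ± 1.03 SE, edgeR adjusted p = 0.205). Of all cell cycle genes, the 3 that could be tested had a median log2 fold change of -2.18 against 0.02 over all 182 genes. Stmn1 (44.8%) and Top2a, both among them, reached 10% of cells only at P3 and P7, where they are high, with 4.88% each at P14. Tubb5 was found in 63.8% and 34.1%. The median is therefore not read as a result about the list. Without the 4 mice of the pool that held both P3 and P7, a setting added after the data were seen, edgeR called 6 genes. They were Gm42418 (2.66, edgeR adjusted p = 0.00021), Ighm (1.22, adjusted p = 0.0014), H3f3a, Atp1b1, Rag1 (2.22, adjusted p = 0.047) and Klhl24. Of the 6, Gm42418 had the smallest adjusted p and the largest log2 fold change, and only H3f3a was lower at P14. Age and pool cannot be told apart in this setting either. With no filter on low counts edgeR called 8, 7 of them lower at P14. The lower ones included Stmn1 (-2.49), Top2a (-2.82) and Ube2c (-3.52), genes of dividing cells. Stmn1, Top2a, Ube2c, Cdca8 and Hmgn2 reached 10% of cells only at P3 and P7, where they are high, and Fcmr only at P14. The calls of these genes are therefore not read as a result about dividing cells. Hmgb2 (-1.64) and Ptma (-1.04) reached 10% in both age groups.

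**Figure D5:**
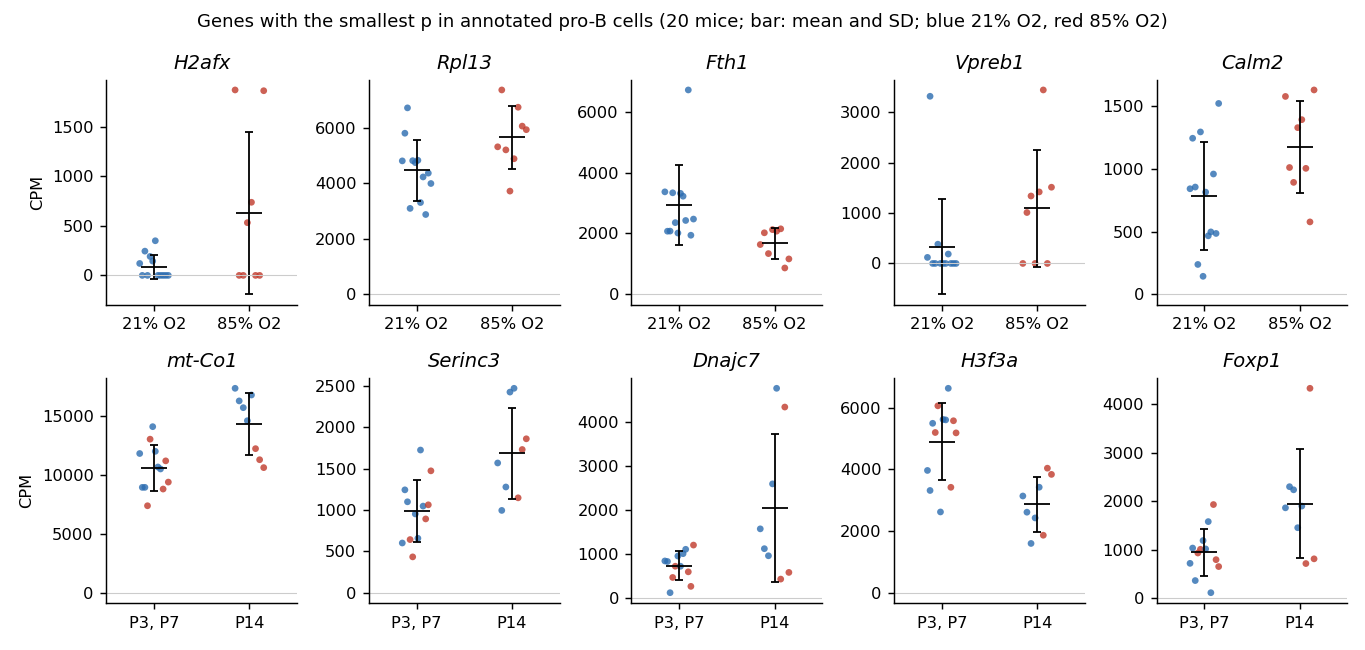
Points are the 20 mice with at least 2 annotated pro-B cells, with the level of each gene in CPM on a linear axis and the mean and SD as bars; the upper row compares oxygen levels and the lower row P14 with P3 and P7. The ranges of the groups overlap in every panel, and none of the genes passed edgeR's test.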

How the data were processed

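The authors aligned 10x 3′ v3 reads to mm10 with Cell Ranger 3.0.2, assigned cells to mice by their sample barcodes, removed cells with several barcodes or over 20% mitochondrial UMIs, and integrated and annotated the clusters. They deposited raw UMI counts for 22100 genes and the mitochondrial percent of each cell. No doublet caller was run here, and 378 deposited cells lay over 20% mitochondrial, 0 of them of this type. The mouse was the replicate, identified by library and sample barcode, and mice were numbered 1 to 6 within a group. Cells were taken by the deposited annotation. The members and the gene lists were chosen with earlier results of these data known. Named genes were those of 6 lists found in at least 10% of either type, some rarer members of these lists chosen after their values were seen (such as Nhej1, Poll, Prkdc, Erg, Rag2 and Xrcc5), the 12 highest and 12 lowest against B cells, and the 5 smallest p of each contrast, since fewer than 5 were called. Some members of the homing and cell cycle lists (such as Cxcr4, Ccr7, Ccnb2 and Ccnd2) were also named, by no rule set beforehand. Shares were compared by exact permutation over 924 splits, or by 100000 resamples. Summed counts were tested with edgeR 4.0.16 (TMM, filterByExpr, glmQLFit), called at adjusted p under 0.05 with a UMI in at least 10% of cells at either level, and with DESeq2 1.42.0. Python 3.11.15, scipy 1.17.1 and R 4.3.3 were used, and the scripts were tested on simulated data. Alternatives covered denominators, thinning, filters, scaling, covariates, the smallest number of cells and leaving out each mouse. Same-numbered mice share no pairing beyond the pool, so the pool served as the block.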

Additional observations from a re-analysis of the deposited data

Results flagged for a closer look

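In each of 4 groups the highest mouse lay farther from the next than Dixon's test allows at the 95% level, a limit that chance passes in about 1 in 20 groups. At P3 the mouse P3 normoxia 1 had 0.356% minor B-lineage cells (3 of 843 cells), and the next normoxic mouse had 0.130%. At P7 the mouse P7 hyperoxia 6 had 0.622% (10 of 1608 cells), and the next hyperoxic mouse had 0.155%. This mouse also held the cell with 42 Vpreb1 UMIs. Among the 8 hyperoxic mice with at least 2 such cells, Vpreb1 reached 3444 CPM in P14 hyperoxia 1, which had 2 cells, and the next was 1513 CPM. Among the 8 P14 mice, Foxp1 reached 4332 CPM in P14 hyperoxia 3, also with 2 cells, and the next was 2303 CPM. Without P14 hyperoxia 3 or any other single mouse the log2 fold change of Foxp1 with age stayed between 0.97 and 1.44. The groups of 12 mice (normoxic, and P3 with P7) were not put to Dixon's test, though single normoxic mice also stood far above the next. Vpreb1 reached 3319 CPM in P3 normoxia 5, and the next normoxic mouse had 382 CPM. Fth1 reached 6716 CPM in P14 normoxia 4, and the next normoxic mouse had 3368 CPM.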

How the results depend on the processing

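With few cells a mouse (a share of 0 in a mouse of 125 cells allows up to 2.40%), depth limits every comparison. As percent of lymphoid cells the difference with oxygen at P3 turned to 0.423 (adjusted p = 0.864), and the age differences to -1.20 (P7 minus P3) and -1.10 (P14 minus P3), none past the test. EdgeR on cell numbers gave a log2 fold change of 0.20 at P3. Per 100 B-lineage cells, leaving out mice with fewer than 20 such cells turned P7 to 0.808. Leaving out 1 mouse at a time gave -0.0378 to 0.0334 at P3, -0.140 to 0.0160 at P7 and -0.217 to -0.0909 at P14 for the share with oxygen, -0.0229 to 0.115 for P14 minus P7, and -1.02 to 2.98, -0.908 to 0.546 and -1.35 to 0.409 per 100 B-lineage cells at P3, P7 and P14. With the pool as replicate block (oxygen labels permuted within pools), the P14 difference of -0.166 had adjusted p = 0.184, and with the pool in the fit edgeR called 0 genes with oxygen. The block changed no other call. The relation to B cells fell to r = 0.14 as percent of lymphoid cells, and within pools was -0.0045, 0.54, 0.75, 0.55 and 0.38. That to CD4+/CD8+ T cells turned to -0.0947, and within pools to -0.177, -0.0795, -0.517 and -0.0346, the other P14 pool holding no such cells. The share of cells with Rag1 was 66.7% without thinning and 28.3% at 500 UMIs. With oxygen, edgeR called 9 genes with no filter, 7 of them with no filter and without the P7 hyperoxia 6 cell that holds most haemoglobin UMIs, and 2 (Hbb-bs and Hba-a2) without cells holding at least 2 UMIs of other types' markers, epithelial ones not counted. With age it called 2 genes from mice with at least 1 cell, 4 from those with at least 3, 8 with no filter, 2 in 21% O2 alone, 2 under that marker filter, 6 without the pool of P3 and P7 and 0 to 3 without 1 mouse, and DESeq2 called 5. The most, 3, came without P14 hyperoxia 1 (Serinc3, Dnajc7 and mt-Co1), 2 each without P14 hyperoxia 6, P7 hyperoxia 2 or P7 hyperoxia 4, and 1 without P3 hyperoxia 5. The marker filter first planned, epithelial markers included, left 5 cells of 1 mouse and was not run. The marker filter used, the settings without that cell and without the pool of P3 and P7 and a count of only cells whose top barcode matched their mouse (P14 difference -0.199, adjusted p = 0.114) were chosen after seeing the data. The cause of these changes was not tested.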

Other observations

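Cells with the surrogate light chain were also found outside the type. Of 61740 cells of other types, 8 held UMIs of at least 2 of Vpreb1, Vpreb2 and Igll1. They came from 7 mice and stood in 6 annotated types, 3 of them as B cells. Of the 8, 7 held Cd79a, 3 held Rag1, 3 held Dntt and 6 held no Igkc. A cell annotated as a CD8+ T cell in P14 normoxia 5 held 15 Vpreb1, 9 Igll1 and 10 Dntt UMIs with 4 UMIs of Cd3d. A cell annotated as a Col13a1+ fibroblast in P14 normoxia 4 held 16 Vpreb1, 9 Igll1, 11 Dntt and 16 Ebf1 UMIs. A cell annotated as a pericyte in P14 normoxia 1, a mouse with no minor B-lineage cell by the annotation, held 18 Vpreb1, 4 Igll1, 11 Rag1, 4 Dntt and 22 Ebf1 UMIs. The 3 cells with most Dntt UMIs here exceeded the highest count within the minor B-lineage type (5 UMIs) in 2 cases. These cells were chosen after their values were seen, and their part in the counts of the type was not tested.

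Ciliated cells carried Vpreb3 in 56.8% of 894 cells, against 47.5% of B cells and 100% of the minor B-lineage cells, at 99.9, 453 and 3509 CPM, all without thinning.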
